A study of Mus musculus with 4 samples.

Results

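Genes of matrix metalloproteinases, their tissue inhibitors and the ADAMTS and ADAMTS-like families were examined in C2C12 cells, a mouse myoblast line. Members were taken by gene symbol (Mmp, Timp, Adamts or Adamtsl followed by a number), which gave 42 of the 55416 genes in the files. One group of 2 libraries came from cells transfected with wild-type lamin A and the other group of 2 from cells transfected with K97E lamin A, which the series calls a DCM mutant (dilated cardiomyopathy, a disease in which the heart chambers widen). All cells were transfected with a lipid reagent, were harvested 24 h later and kept their own Lmna gene, so the groups differ in the transfected DNA and share everything else that the labels give. Untransfected cells were not analysed here, no source used here gives the share of cells that took up DNA, and the sample titles of the K97E group spell the line C1C12. Each replicate is called biological in the labels, without a statement on separate cultures, so the p-values measure the spread between these libraries, which may be technical.

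Matrix metalloproteinases (MMPs) are zinc-dependent enzymes that cut collagens, gelatin, laminin and other matrix proteins, and most are made as inactive precursors. Tissue inhibitors of metalloproteinases (TIMPs) bind the active site, and TIMP2 also helps the membrane-anchored MMP14 to activate the secreted gelatinase MMP2. ADAMTS enzymes are secreted relatives that cut proteoglycans, procollagens or other matrix proteins, while ADAMTS-like proteins resemble them but lack the protease domain. In skeletal muscle these genes are known for matrix turnover during myoblast migration and repair.

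The libraries held between 89600000 and 115600000 estimated reads of 100 bases, and 16304 genes reached a mean of 0.5 TPM, the level at which a gene was called measured and tested. TPM is a gene's share of all transcripts, corrected for length and scaled so that a library sums to 1000000. Over those genes the 2 wild-type libraries correlated at 0.9849 on the log2 scale, the lowest of all pairs, and the 2 K97E libraries at 0.9911, the highest. Lmna had 557.7 and 596 TPM with wild-type lamin A, and 659.7 and 629.4 TPM with K97E, values in which reads from the transfected DNA cannot be told from the cells' own. No source used here gives the species of the transfected lamin A, so how fully its reads were counted for mouse Lmna is not known. The myoblast label was checked on marker genes. All 7 myoblast markers found in the files were measured and 0 were called, with 3 positive and 4 negative differences. Des, Chrna1 and Myod1, 3 of these 7, lay lower in both K97E libraries, and 16.8% of all tested genes did so. Chrna1 had 49.8 and 51.8 TPM with wild type, and 40.2 and 41.3 TPM with K97E. Its log2 difference, K97E minus wild type, was -0.37 (SE 0.09, limma unadjusted p = 0.00737, limma adjusted p = 0.965). Des, the muscle intermediate filament desmin, averaged 435.5 TPM with wild type and 392.5 TPM with K97E, and the integrin gene Itga7 averaged 155.9 and 160.7 TPM. Of 6 markers of differentiated muscle 1 was measured, and the 5 epithelial markers summed to at most 0.393 TPM in any library, with Cdh1 at 0. Summed endothelial markers ran from 18.2 to 20.7 TPM with wild type and from 17.43 to 18.98 TPM with K97E. Nearly all of this was Cdh5, as Tek and Pecam1 averaged at most 0.270 TPM in either group. Summed fibroblast markers ran from 9.96 to 10.4 TPM with wild type and from 11.6 to 12.1 TPM with K97E, most of it Pdgfra. In bulk RNA fewer cells of a type and less RNA per cell cannot be told apart.

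Of the 42 genes, 25 were measured, 14 lay below a mean of 0.5 TPM and 3 were listed at 0 in every library. The measured set held 11 of 19 MMP genes, 3 of 4 TIMP genes, 8 of 15 ADAMTS genes and 3 of 4 ADAMTS-like genes. Inhibitor RNA outweighed MMP RNA in every library. TIMP genes summed to 1063 and 1358 TPM with wild type, and to 1315 and 1098 TPM with K97E, whereas MMP genes summed to 425.7 and 420.7 TPM and to 438.3 and 441.6 TPM. The ratio of the TIMP sum to the MMP sum was 2.50 and 3.23 with wild type, and 3.00 and 2.49 with K97E, so the groups overlapped. In each sum a pair of genes made up most of the RNA, with Timp1 and Timp2 giving 93.8% to 94.8% of TIMP, and Mmp14 and Mmp2 giving 68.2% to 73.3% of MMP. The MMP sums of the groups did not overlap in TPM as deposited, but did so after scaling of the libraries, at 434.5 and 429.3 against 420.1 and 442.7.

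**Figure D1:**
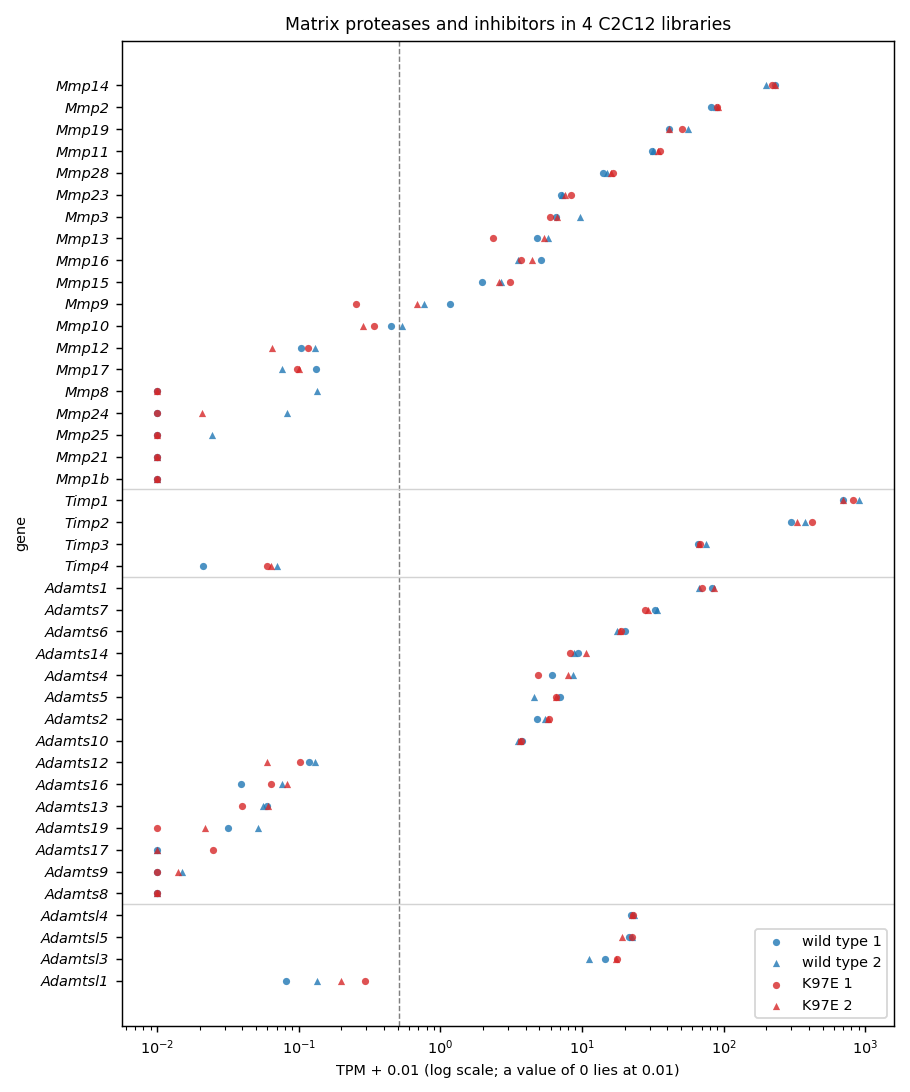
TPM of all 42 genes in each of the 4 libraries (log axis, 0.01 added so that a value of 0 can be drawn), ordered by class and mean; circles are replicate 1, triangles replicate 2, blue wild type and red K97E. The dashed line marks the mean of 0.5 TPM that 25 genes reached, and Timp1, Timp2 and Mmp14 lie farthest to the right.

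No member passed the test between K97E and wild-type lamin A. Differences are K97E minus wild type as log2(TPM + 0.5), a scale that shrinks changes of weakly expressed genes, after division of each library by a scaling factor. With limma and adjustment over all 16304 tested genes, 0 of 25 measured members were called, and the smallest adjusted p among them was 0.965. Over all tested genes 0.00613% were called. At an unadjusted p under 0.05 there were 2 members of 25, Adamts7 and Adamtsl3, where 3.68% of all tested genes lay under that level. Leaving out wild-type replicate 1 gave 4 such members, and leaving out either wild-type replicate 2 or K97E replicate 1 gave 0. With voom weights on estimated reads 0 members were called and 3 had an unadjusted p under 0.05.

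The 25 measured members were split in direction. Of these 14 had a negative difference, beside 50.5% of all tested genes, and their median difference was -0.05 against -0.0017 over all tested genes. This median was 0.03 without K97E replicate 1. In scaled values the K97E libraries lay above both wild-type libraries for 4 members (Mmp11, Mmp28, Mmp23 and Adamtsl3) and below both for 3 (Adamts7, Mmp3 and Mmp9). Among all tested genes 16.3% lay above and 16.8% below in this way. In TPM as deposited Mmp2 and Adamts2 also lay above, and the groups overlapped for Mmp3. The median size of the difference, regardless of sign, was 0.11 for the members and 0.10 over all tested genes. The median within-group SD on the log2 scale was 0.19 for the members and 0.13 over all tested genes.

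**Figure D2:**
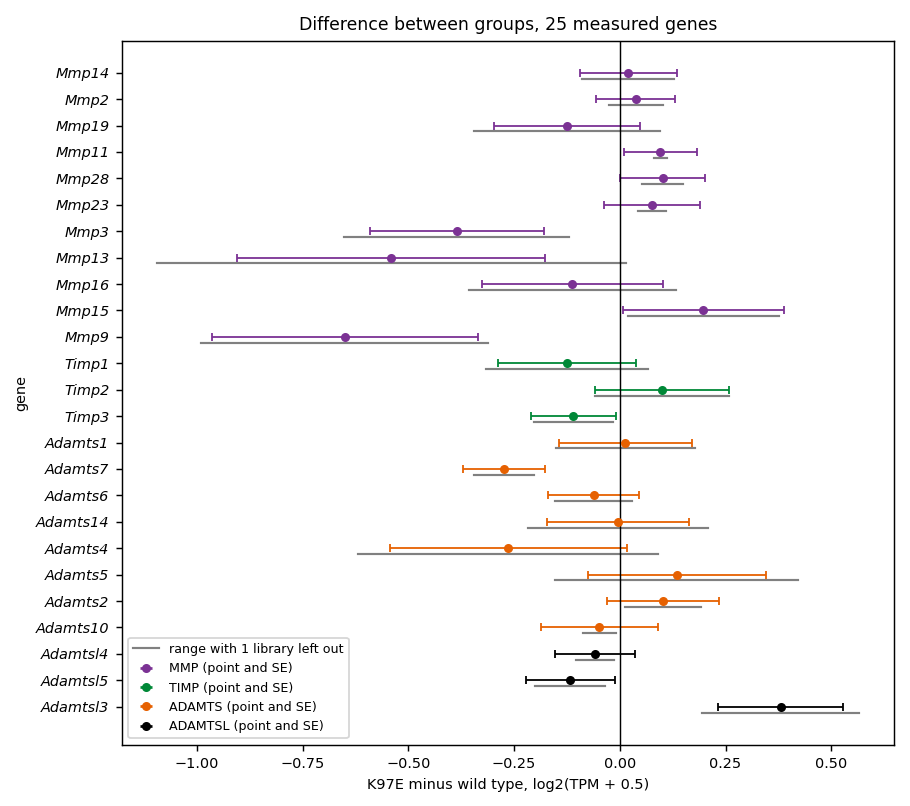
Difference between K97E and wild type on the log2(TPM + 0.5) scale for the 25 measured genes, with the limma SE as bars (n = 2 a group); grey lines span the lowest and highest value when 1 library is left out. Most points lie within 0.3 of 0, and the grey line crosses 0 for genes that include Timp1, Timp2, Mmp14 and Mmp13.

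A cluster of MMP genes on chromosome 9 shares its position, and several of its genes, though not Mmp8, also hold promoter motifs that the choice of genes did not use, so promoters are shown. Of the 42 genes 6 (Mmp13, Mmp12, Mmp1b, Mmp3, Mmp10 and Mmp8) lie together on chromosome 9 between 7272514 and 7568486 in GRCm39, the build of the files. Promoter sequences from RefSeq, in build GRCm38.p6, matched 28 of the 42 genes and 16 of the 25 measured ones, with 30 start sites. The measured genes without a match were Mmp2, Mmp9, Mmp16, Mmp19, Adamts4, Adamts5, Adamts6, Adamts7 and Adamts10, and their promoters were not searched. In the 250 bases before the start, the letters TGANTCA, the recognition sequence of AP-1 factors such as Fos and Jun, were present in 5 of the 7 start sites of this cluster (not that of Mmp8 or 1 of the pair for Mmp12) and in 0 of the 23 elsewhere, and in 6.75% of all 32851 promoters. TATAAA, the letters of the TATA box, was present in 4 of the 7 (Mmp3, Mmp10, Mmp13 and Mmp1b, but neither Mmp8 nor Mmp12). It was also present before Adamts1 and Mmp21 elsewhere, and in 12.37% of all promoters. In the cluster it started 7 bases before the start for Mmp3, 29 for Mmp10, 16 for Mmp13 and 49 for Mmp1b. GGGCGG, the core that Sp1 is known to bind, was present in 0 of the 7 and in 16 of the 23 elsewhere, and in 32.74% of all promoters. Each motif was searched on both strands, and in the sequences printed here no motif overlapped another. The share of G and C was 37.2% to 44.8% at the start sites of the cluster and 53.6% to 80.0% at the others.

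The last 110 bases before the start, in GRCm38.p6, are given for Mmp3 (chr9:7445712-7445821, plus strand), Mmp10 (chr9:7502232-7502341, plus strand) and Mmp13 (chr9:7272404-7272513, plus strand), and for the most abundant MMP and TIMP gene, Mmp14 (chr14:54431488-54431597, plus strand) and Timp1 (chrX:20870056-20870165, plus strand). Capitals mark the 3 motifs, GGGCGG also as its reverse complement.
Mmp3: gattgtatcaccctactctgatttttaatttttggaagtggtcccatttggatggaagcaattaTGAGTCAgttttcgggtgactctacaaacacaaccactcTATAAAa
Mmp10: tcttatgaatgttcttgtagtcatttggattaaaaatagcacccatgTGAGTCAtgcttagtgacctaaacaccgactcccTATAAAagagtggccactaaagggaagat
Mmp13: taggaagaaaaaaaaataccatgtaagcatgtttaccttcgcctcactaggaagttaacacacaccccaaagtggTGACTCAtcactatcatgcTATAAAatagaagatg
Mmp14: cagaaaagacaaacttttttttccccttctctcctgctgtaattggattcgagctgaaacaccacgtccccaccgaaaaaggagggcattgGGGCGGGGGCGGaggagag
Timp1: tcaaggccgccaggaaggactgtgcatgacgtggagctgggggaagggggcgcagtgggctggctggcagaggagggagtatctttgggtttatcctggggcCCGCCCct
In the first 3 sequences TGANTCA lies upstream of TATAAA, starting 46 bases before the start for Mmp3, 63 for Mmp10 and 35 for Mmp13. Neither motif is present in the 250 bases before the start of Mmp14 or Timp1. These matches describe letters in a window, and binding was not measured.

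The 6 genes of the chromosome 9 cluster were weakly expressed. The 3 highest of them had lower means with K97E, and over all tested genes 50.5% had a negative difference. Mmp3 (ENSMUSG00000043613; GRCm39 chromosome 9, 7445822 to 7455975, plus strand), a stromelysin that cuts many matrix proteins, had 6.57 and 9.73 TPM with wild-type lamin A, and 5.91 and 6.62 TPM with K97E. Wild-type replicate 2 was the high library, and the other 3 lay close together. The difference was -0.39 (SE 0.21, unadjusted p = 0.115, limma adjusted p = 0.965), or -0.12 without the high library and -0.65 without the other wild-type library. Mmp13 (ENSMUSG00000050578; chromosome 9, 7272514 to 7283331, plus strand), a collagenase of cartilage and bone, had 4.80 and 5.78 TPM with wild-type lamin A, and 2.35 and 5.42 TPM with K97E. Here K97E replicate 1 was the low library, and the other K97E library lay between the wild-type libraries. Cartilage and bone cells are known to make this enzyme. Their markers summed to 27.3 to 29.0 TPM with wild type and 26.5 to 34.2 TPM with K97E. Most of each sum was Sox9. Bglap was the only other marker measured, and Comp, Matn1, Sp7 and Ibsp lay below the level for testing. The part of these cells in the values of Mmp13 was not tested. The difference was -0.54 (SE 0.36, unadjusted p = 0.192, limma adjusted p = 0.965), and it was 0.01 without K97E replicate 1 and -1.09 without K97E replicate 2. Mmp10, a stromelysin close to Mmp3, lay below the level for testing, at 0.436 and 0.528 TPM with wild type and 0.332 and 0.276 TPM with K97E. Its values rested on 24 to 45 estimated reads a library. Mmp12, the macrophage elastase, ranged from 0.0543 to 0.120 TPM. The neutrophil collagenase Mmp8 had a value in wild-type replicate 2 alone, on 15 estimated reads. Mmp1b, a rodent relative of the interstitial collagenase gene, was listed at 0.

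Gelatinases cut denatured collagen and basement membrane collagen, and on the length-corrected TPM scale Mmp2 stood far above Mmp9. Mmp2 (ENSMUSG00000031740; chromosome 8, 93553919 to 93580048, plus strand) had 81.2 and 88.7 TPM with wild-type lamin A, and 90.2 and 91.2 TPM with K97E. Both K97E values lay above both wild-type values in TPM as deposited, but the groups overlapped after scaling. The difference was 0.04 (SE 0.09, unadjusted p = 0.701, limma adjusted p = 0.982), and -0.03 without wild-type replicate 1. Mmp9 (ENSMUSG00000017737; chromosome 2, 164782700 to 164797770, plus strand) had 1.15 and 0.757 TPM with wild-type lamin A, and 0.245 and 0.674 TPM with K97E. The K97E libraries were both lower, though K97E replicate 2 lay close to wild-type replicate 2. The difference was -0.65 (SE 0.31, unadjusted p = 0.0877, limma adjusted p = 0.965), the lowest of all measured members, and rested on 40 to 152 estimated reads a library. It was -0.31 without K97E replicate 1, -0.99 without K97E replicate 2, -1.05 with a pseudocount of 0.1, -1.31 with voom weights and -0.37 with FPKM as deposited.

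Neutrophils and macrophages are known sources of Mmp8, Mmp9 and Mmp12, so their markers are given beside these genes. Of 5 neutrophil markers in the files 2 were measured, S100a8 and Ly6g, and the list summed to 1.79 and 3.47 TPM with wild type and to at most 1.71 TPM with K97E. S100a8 stood at 1.17 and 1.86 TPM against 0.923 and 0.206 TPM, lower in both K97E libraries (limma adjusted p = 0.965). Over all tested genes 16.8% lay below in this way. For Ly6g the groups overlapped, at 0.469 and 1.608 TPM with wild type and 0.658 and 0.495 TPM with K97E. The granulocyte receptor gene Csf3r was at 0 in all 4 libraries. Of 7 macrophage and monocyte markers 3 were measured, and their sum ran from 47.5 to 64.4 TPM with wild type and from 54.9 to 57.0 TPM with K97E, most of it Cd14. The macrophage receptor gene Adgre1 was at 0, and Ptprc, the pan-leukocyte gene, averaged 0.0282 and 0.0272 TPM. The part of these cells in the values of Mmp9 was not tested.

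Membrane-anchored MMPs act at the cell surface. Mmp14 (ENSMUSG00000000957; chromosome 14, 54669069 to 54682821, plus strand), the main cell-surface collagenase, was the most abundant protease gene of the set. It had 230.8 and 198.4 TPM with wild-type lamin A, and 220.7 and 231.0 TPM with K97E, so that wild-type replicate 1 and K97E replicate 2 nearly coincided. The difference was 0.02 (SE 0.11, unadjusted p = 0.869, limma adjusted p = 0.993), which turned to -0.09 without the second wild-type library and to 0.13 without the first. Mmp15 and Mmp16 are membrane-type relatives with a transmembrane anchor. Mmp15 ranged from 1.97 TPM in wild-type replicate 1 to 3.07 TPM in K97E replicate 1, with a difference of 0.20 (SE 0.19). Mmp16 ranged from 3.51 TPM in wild-type replicate 2 to 5.13 TPM in wild-type replicate 1, with a difference of -0.11 (SE 0.21). The lipid-anchored Mmp17 and Mmp25 and the membrane-type Mmp24 stayed at or under 0.123 TPM in every library.

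Other MMPs were expressed at intermediate levels. Mmp11 (ENSMUSG00000000901; chromosome 10, 75759056 to 75772330, minus strand), which is activated inside the cell by furin, had 31.0 and 31.7 TPM with wild-type lamin A, and 35.5 and 34.3 TPM with K97E. The K97E libraries lay above, by 0.10 (SE 0.09, unadjusted p = 0.310, limma adjusted p = 0.965), and the difference kept its sign with each library left out, between 0.08 and 0.11. Mmp28, known as epilysin, lay in the same order, at 14.02 and 15.02 TPM against 16.50 and 15.99 TPM, with a difference of 0.10 (SE 0.10). Mmp23, an unusual member that lacks the hemopexin domain, stood at 7.15 and 7.26 TPM against 8.32 and 7.57 TPM, a difference of 0.08 (SE 0.11). In Mmp19, which cuts basement membrane proteins, wild-type replicate 2 (56.3 TPM) and K97E replicate 1 (51.2 TPM) were high and the other libraries lay at 41.3 and 41.4 TPM. Between 21.5% and 24.3% of the bases credited to Mmp19, and 11.8% to 14.5% of those credited to Mmp28, lie on exons of another gene on the opposite strand. The recorded command has no strand option, so those reads could belong to either gene.

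**Figure D3:**
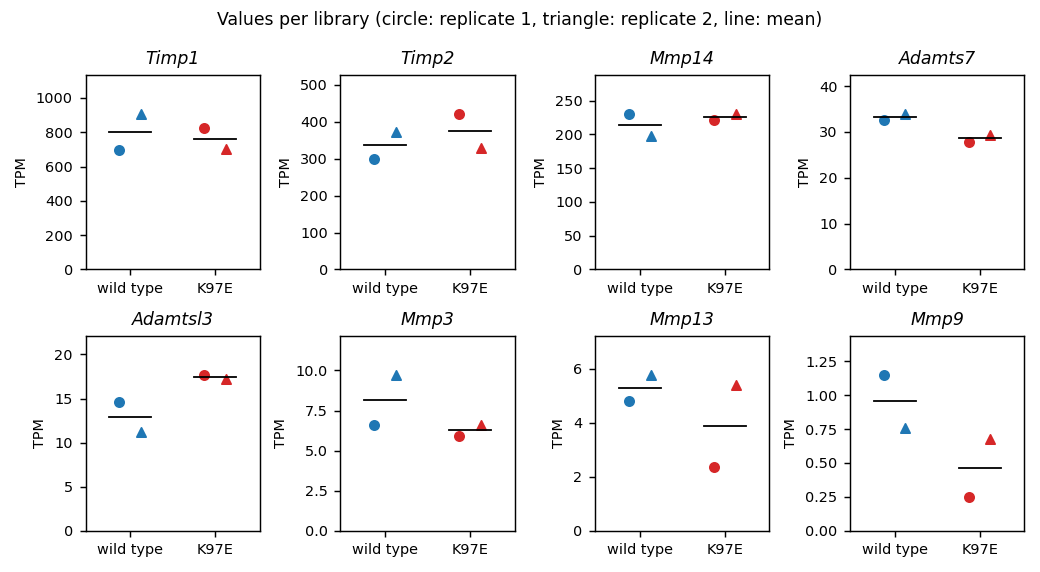
TPM as deposited of 8 genes in each library (axes start at 0), with wild type in blue, K97E in red, circles for replicate 1, triangles for replicate 2 and a line at each group mean. Adamts7, Adamtsl3 and Mmp9 show groups that do not overlap, whereas Timp1, Timp2 and Mmp14 vary as much within a group as between groups.

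TIMP1 inhibits most secreted MMPs, TIMP2 also inhibits the membrane-anchored ones, and TIMP3 stays bound to the matrix and inhibits ADAMTS enzymes and ADAM17 as well. Timp1 (ENSMUSG00000001131; chromosome X, 20736405 to 20740974, plus strand) had 696.8 and 908.9 TPM with wild-type lamin A, and 823.9 and 700.0 TPM with K97E. It was the most abundant member, above 99.0% of tested genes. The groups overlapped, with a difference of -0.13 (SE 0.16, unadjusted p = 0.474, limma adjusted p = 0.965) that turned to 0.07 without wild-type replicate 2 and reached -0.32 without the first. Timp2 (ENSMUSG00000017466; chromosome 11, 118191895 to 118246566, minus strand) had 299.9 and 373.7 TPM with wild-type lamin A, and 422.4 and 330.4 TPM with K97E. Its difference was 0.10 (SE 0.16, unadjusted p = 0.552, limma adjusted p = 0.965), and -0.06 without wild-type replicate 1. Wild-type replicate 2 and K97E replicate 1 were the high libraries for both genes, as they were for Mmp19. Timp3 (ENSMUSG00000020044; chromosome 10, 86136236 to 86185370, plus strand) had 65.9 and 75.1 TPM with wild-type lamin A, and 68.4 and 67.2 TPM with K97E. The difference was -0.11 (SE 0.10, unadjusted p = 0.316, limma adjusted p = 0.965), and -0.02 without wild-type replicate 2, the high library. Timp4, an inhibitor known from heart and other striated muscle, lay between 0.0109 and 0.0602 TPM.

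**Figure D4:**
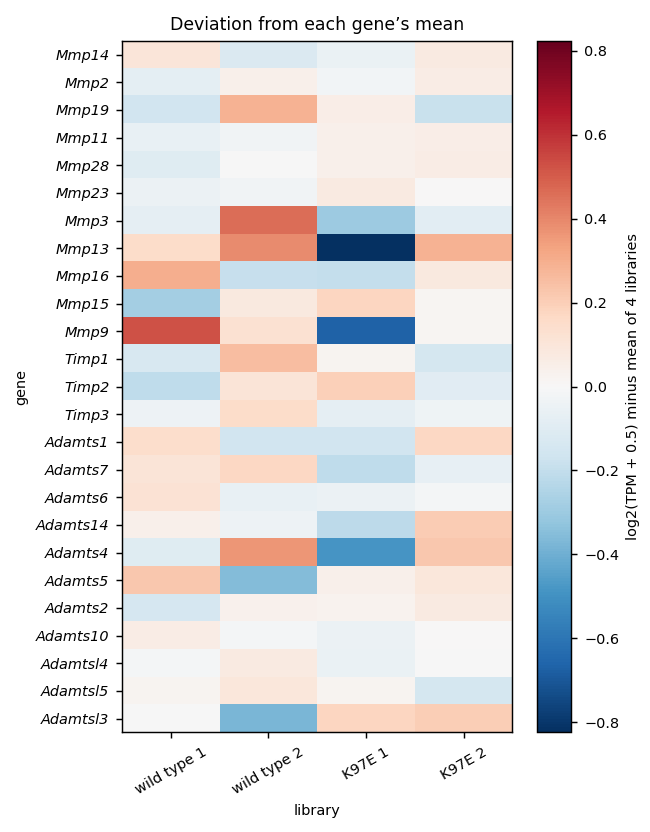
Deviation of each library from the gene's mean over the 4 libraries, on the log2(TPM + 0.5) scale after scaling, for the 25 measured genes (red above, blue below). Mmp13, Mmp9 and Adamts4 are lowest in K97E replicate 1, and Timp1, Mmp19 and Mmp3 are highest in wild-type replicate 2.

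The proteoglycan-cutting ADAMTS genes were led by Adamts1. Adamts1 (ENSMUSG00000022893; chromosome 16, 85590715 to 85600001, minus strand), which cuts versican and aggrecan, had 82.4 and 66.6 TPM with wild-type lamin A, and 71.0 and 85.3 TPM with K97E. The groups overlapped, with a difference of 0.01 (SE 0.16, unadjusted p = 0.937, limma adjusted p = 0.995) that was 0.18 without K97E replicate 1 and -0.15 without K97E replicate 2. Its neighbour on the same strand, the aggrecanase gene Adamts5, stood at 7.01 and 4.54 TPM against 6.52 and 6.50 TPM, with wild-type replicate 2 alone low. Adamts4, the other main aggrecanase, ranged from 4.85 TPM in K97E replicate 1 to 8.63 TPM in wild-type replicate 2 and had a within-group SD of 0.42 on the log2 scale. Between 2.91% and 4.29% of its bases lie on exons of another gene, also on the opposite strand.

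Adamts7 had the smallest p of the set. Adamts7 (ENSMUSG00000032363; chromosome 9, 90045122 to 90090124, plus strand), known for cutting cartilage oligomeric matrix protein, had 32.6 and 34.0 TPM with wild-type lamin A, and 27.8 and 29.4 TPM with K97E. Both K97E libraries lay below both wild-type libraries, by 0.27 on the log2 scale (difference -0.27, SE 0.10, unadjusted p = 0.0338, limma adjusted p = 0.965). The difference lay between -0.35 and -0.20 with each library left out. The procollagen-processing enzymes Adamts2 and Adamts14 stood at 4.80 and 5.49 TPM against 5.81 and 5.74 TPM, and at 9.35 and 8.80 TPM against 8.24 and 10.7 TPM. Adamts6 and Adamts10, which are tied to fibrillin microfibrils, varied little, from 17.6 to 20.1 TPM and from 3.55 to 3.77 TPM. For Adamts10 the difference was -0.05 and for Adamts14 -0.0041, and both turned positive with TPM as deposited, at 0.0026 and 0.05.

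Among the ADAMTS-like genes Adamtsl3 had values that did not overlap between groups. Adamtsl3 (ENSMUSG00000070469; chromosome 7, 81984902 to 82263658, plus strand), which encodes a matrix glycoprotein without protease activity, had 14.6 and 11.2 TPM with wild-type lamin A, and 17.7 and 17.3 TPM with K97E. Both K97E libraries lay above, with a difference of 0.38 (SE 0.15, unadjusted p = 0.0454, limma adjusted p = 0.965), the highest of the measured members. Leaving out the low wild-type library gave 0.19, and leaving out the other gave 0.57. Adamtsl4, a fibrillin-binding member, stayed between 22.01 and 23.47 TPM, and Adamtsl5 between 19.3 and 22.7 TPM, with the groups overlapping for both. Adamtsl1 lay below the level for testing, at 0.0707 and 0.1246 TPM with wild type and 0.282 and 0.190 TPM with K97E.

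The remaining members were at or near 0. Adamts12, Adamts13, Adamts16, Adamts17, Adamts9 and Adamts19 did not exceed 0.120 TPM in any library, and each rested on at most 51 estimated reads. Adamts13 encodes the protease of von Willebrand factor. Mmp21 and Adamts8 were listed at 0 in all 4 libraries, as was Mmp1b. The threshold of 0.5 TPM fell between Mmp9, at a mean of 0.707 TPM, and Mmp10, at 0.393 TPM.

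Other genes that act on the matrix or on these proteases were taken from 6 lists, none of whose genes was called over all genes tested. Of 9 measured ADAM metalloproteases, membrane relatives that shed surface proteins, 5 had a positive and 4 a negative difference, with a median of 0.01. Adam9, Adam10 and Adam15 were the most abundant, with means of 150.6, 79.2 and 55.2 TPM in wild type and 157.7, 81.6 and 59.8 TPM in K97E. Of 7 measured genes of plasminogen activation, a protease cascade that can activate MMP precursors, 2 were positive and 5 negative, with a median of -0.06. The plasminogen receptor gene Plgrkt and the urokinase receptor gene Plaur led this list and differed by -0.06 (SE 0.11) and -0.14 (SE 0.11). Among 8 measured other regulators 6 were positive, with a median of 0.02, and Cst3, Bsg and Thbs1 differed by -0.07, -0.07 and 0.02.

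Astacin-type and procollagen-processing genes, a list that includes Adamts2 and Adamts14, had 4 of 5 measured genes positive and a median of 0.12. Pcolce, which enhances procollagen cleavage, stood at 681.6 ± 88.4 TPM (SD, n = 2) in wild type and 797.0 ± 93.8 TPM (SD, n = 2) in K97E, and the procollagen C-proteinase Bmp1 differed by 0.12 (SE 0.12). Pcolce2 stood at 20.1 and 20.1 TPM against 25.5 and 25.4 TPM, with a difference of 0.27 (SE 0.09, unadjusted p = 0.0267, limma adjusted p = 0.965). Of 10 measured other matrix-degrading enzymes 6 were positive and the median was 0.06, with the cathepsin genes Ctsb, Ctsl and Ctsd at 0.02, -0.26 and 0.11. Of 20 measured matrix substrates 11 were positive and the median was 0.03. Col3a1, Sparc and Fn1 led that list and differed by -0.12 (SE 0.23), -0.05 (SE 0.14) and 0.07 (SE 0.14). Besides Pcolce2, the listed genes with an unadjusted p under 0.05 were Adam8, Adam12 and the cathepsin gene Ctss, named after their values were seen. With Pcolce2 these were 2 of 9 measured ADAM genes, 1 of 5 procollagen-processing genes and 1 of 10 other matrix-degrading enzymes. The other lists had 0, and over all tested genes 3.68% lay under that level. Adam8 stood at 14.7 and 12.9 against 10.5 and 11.9 TPM, and Adam12 at 1.07 and 1.48 against 1.94 and 2.66 TPM. Ctss stood at 25.4 and 18.6 against 11.6 and 16.1 TPM, and the limma adjusted p was 0.965 for each of these genes.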

How the data were processed

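Per the labels' protocols, mRNA libraries of transfected C2C12 cells came from a kit that keeps strand, with paired-end sequencing (read length 100). Per the submitters' processing notes the tools were FastQC, HISAT2, StringTie 2.1.7, SAMtools and DESeq2, and the build was GRCm39. Per the file headers, the authors ran StringTie on the annotated Ensembl transcripts alone, without a strand option. The deposited files give coverage, FPKM and TPM for 142434 transcripts a library and no read counts. Estimated reads are coverage times transcript length divided by 100, and since they are not counts, no counting interval was computed.

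TPM was summed over the transcripts of a gene, divided by median-of-ratios factors (0.98, 0.98, 1.043 and 0.997) and transformed as log2(TPM + 0.5). Genes with a mean of at least 0.5 TPM were fitted together with limma 3.58.1 in R 4.3.3 (eBayes with trend, two-sided, Benjamini-Hochberg adjustment, threshold 0.05). An exact permutation test of 2 against 2 cannot go below 0.333. On simulated data for 16304 genes 53 of 100 true 2-fold changes and 88 of 100 true 4-fold changes were called, with 8 false calls. All these changes were present at once, which loosens the adjusted threshold, and the noise was drawn from limma's prior variances. The median within-group SD was 0.19 for the members and 0.13 over all tested genes. These rates therefore do not give the power for the members. Full statistics are given for the 6 most abundant members, the 6 with the smallest p and the TIMP genes, and of each further list the 3 most abundant genes are named, except 1 that is not reported here. Members and lists were chosen with earlier results of these data known. Alternatives are named in the closing section. Python 3.11.15, pandas 2.3.3 and matplotlib 3.10.9 served for reading files and plotting.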

Additional observations from a re-analysis of the deposited data

How the results depend on the processing

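No member was called under any of the 15 other settings, which covered pseudocount, filter, scaling, unit, error model, replicate block and each library left out, and the smallest adjusted p of a member over them was 0.386. The 2 replicate numbers come from the labels, which do not say that they mark a shared culture or day. Deviations from group means of same-numbered libraries correlated at -0.137 over tested genes. With the replicate block 0 members and 0 genes were called, and with the crossed pairing, chosen after seeing the data, 0 members and 30 genes. Over all genes 1 was called, against 12 without wild-type replicate 1, 5 with voom weights, 2 with TPM as deposited or without the trend, and 0 without any one of the other libraries or without the filter on low values. Of 374 member values under these settings 23 had the opposite sign, and 12 of 25 members kept their sign throughout. The median over members was 0.0026 with TPM as deposited, where the median of all tested genes was 0.05, and it ran from -0.045 to 0.026 with a library left out. The sign turned with voom weights for Adamts1 (-0.014) and Mmp14 (-0.010), with TPM as deposited for Adamts10 (0.0026) and Adamts14 (0.051), and with FPKM for Adamts14 (0.022). With a library left out the ranges of genes whose sign turned were -0.15 to 0.18 for Adamts1, -0.22 to 0.21 for Adamts14, -0.62 to 0.090 for Adamts4, -0.15 to 0.42 for Adamts5, -0.15 to 0.030 for Adamts6, -1.09 to 0.013 for Mmp13, -0.089 to 0.13 for Mmp14, -0.36 to 0.13 for Mmp16, -0.35 to 0.10 for Mmp19, -0.026 to 0.10 for Mmp2, -0.32 to 0.066 for Timp1 and -0.058 to 0.26 for Timp2. A left-out library leaves its group with 1 sample, which is assumed to vary like the other group. The cause of these turns was not tested. Mmp9 is not tested at a mean of at least 1 TPM. Among measured members Mmp9 rested on the fewest estimated reads, 40 to 152 a library, and the unmeasured members rested on at most 82. The part of read number in the spread was not tested.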

Other observations

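Transcripts of a gene gave further detail, as StringTie's model divided the reads among them. Mmp14, Mmp2, Timp2, Timp3 and Adamts1 were each credited almost wholly to 1 transcript, with at least 97.2% for Mmp14 (ENSMUST00000089688) and 99.7% to 99.8% for Timp3 (ENSMUST00000020234). Timp1 was shared between transcripts of 833 and 883 bases, the first taking 43.7% and 50.8% with wild type, and 49.4% and 47.5% with K97E. In Adamts2 the shorter transcript of 5079 bases (ENSMUST00000142118) took 25.9% and 26.5% with wild type and 39.15% and 44.25% with K97E, so the groups did not overlap. This share was not tested and was named after its values were seen. Shares of other transcripts also did not overlap, such as ENSMUST00000105352 of Adamtsl5 at 19.6% and 10.4% with wild type and 3.24% and 2.88% with K97E. How many of all transcripts do so was not computed.

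For Adamts7 and Adamts4 the division among transcripts moved between replicates. The Adamts7 transcript ENSMUST00000113059 took 64.0% and 17.3% of the gene with wild type, and 18.7% and 11.7% with K97E, while the sum over transcripts was 32.6 and 34.0 TPM in those wild-type libraries. The Adamts4 transcript ENSMUST00000111314 took 57.1% and 11.3% with wild type and 5.68% and 45.2% with K97E. These shares are model estimates with no error given in the files.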
